A study of Drosophila melanogaster with 46 samples.

Results

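The response of the larval eye disc to mutation of Polycomb (Pc) was described across all 12785 genes of the authors' deposited table for that comparison, out of 12884 genes in either of the 2 fold change tables of the series. Every gene of the table was a member, and 11297 had an adjusted p and are called tested genes here. The remaining 1488 genes had a mean normalized count of at most 1.649 over the libraries of the comparison and no adjusted p. The mutant group, Mutant_PcXT109_FRT2A, held 2 replicates of about 150 eye discs each from L3 wandering larvae of the strain given as PCxt109 mutant. FRT2A is a recombination site on the left arm of chromosome 3 (3L), the arm that carries Pc, and is used to make mutant tissue by mitotic recombination. No control is named in the labels for the deposited table, so the mutation and the genetic background cannot be told apart, and whether every cell of a disc was mutant is not given. Nothing in the labels states that replicates are separate animals, and p-values then measure the spread between these samples, which may be technical. A second table, used only beside named genes, compared 4 replicates of ph RNAi discs (cross of BL 64095 with VDRC50028) with 4 replicates of white RNAi discs (BL 64095 with BL33623). Binding came from merged peak lists of 2 ChIP-seq replicates each for PSC and SUZ12 (the Su(z)12 protein) in eye discs of a W1118 Oregon-R strain, about 500 discs per replicate.

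Polycomb repressive complex 1 (PRC1) is a chromatin complex that keeps developmental genes silent. Pc is its subunit that reads trimethylated lysine 27 of histone H3, Polyhomeotic (ph) and Posterior sex combs (PSC) are further subunits, and Su(z)12 belongs to PRC2, the complex that writes that methylation. In imaginal discs the complex is best known for keeping homeotic genes off, and disc cells without ph or without Psc and Su(z)2 are known to overgrow. The deposited table holds 1 mean normalized count, 1 log2 fold change and its standard error per gene and no value per sample, so overlap between the replicates of the groups cannot be shown. Fold changes are mutant over control, errors are the authors' standard errors (SE), and a call is the authors' DESeq2 Wald test with a Benjamini-Hochberg adjusted p under 0.05. In these bulk samples, fewer cells of a type and less RNA per cell cannot be told apart.

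Genes that fell in Pc mutant discs outnumbered those that rose. Of the 11297 tested genes, 1116 (9.88%) were called, 411 higher (3.64%) and 705 lower (6.24%), with DESeq2's adjusted p. The increases made up 36.83% of the calls, and 24.25% (309 higher, 965 lower) when fold changes were centred on the median of the cytoplasmic ribosomal protein genes, which lay at a log2 difference of 0.07. The size of the changes was alike in both directions. Called increases had a median log2 fold change of 0.71 (1.63-fold) and called decreases of -0.83 (0.563-fold). Of the increases 170 (41.36%), and of the decreases 274 (38.87%), had a log2 change of at least 1. At a log2 change of at least 3 the order was turned round, with 64 increases and 52 decreases. The targeted gene itself was at 0.321-fold of control, with a log2 fold change in the authors' deposited table of -1.64 ± 0.41 (SE, adjusted p = 0.00134). Eye disc genes were well represented, with mean normalized counts of 6746 for eya, 2618 for so, 1919 for ey and 4143 for gl in the authors' deposited table.

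**Figure D1:**
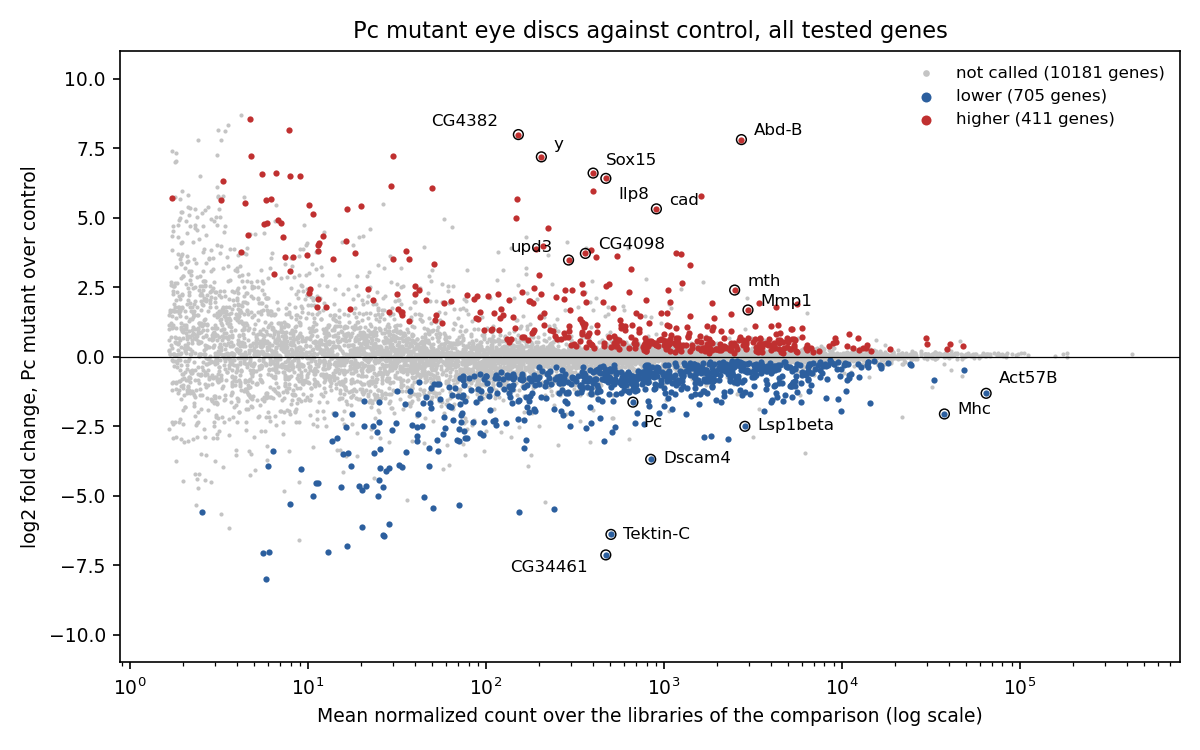
Mean normalized count (log axis) against log2 fold change, Pc mutant over control, for every tested gene, with 411 genes called higher in red, 705 called lower in blue and genes not called in grey. The calls fan out at low counts, circled genes are labelled by name, and among genes with a mean count of 50 or more the increases reach 7.99 (CG4382) and the decreases -7.13 (CG34461).

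The largest increases outside the Hox genes mixed developmental regulators with uncharacterised genes and the pigmentation gene y. The threshold for this ranking was a mean normalized count of at least 50. Sox15, a Sox family transcription factor (2R, 14201390 to 14212413, dm6), rose 97.0-fold, with a log2 fold change of 6.60 ± 0.50 in the authors' deposited table. The relaxin-like hormone gene Ilp8 (3L, 17029812 to 17032080), which delays metamorphosis when discs are damaged, rose 85.0-fold (6.41 ± 0.55) in the authors' deposited table. The homeobox gene cad (2L, 20770731 to 20783135), known for patterning the hindgut and posterior embryo, rose 39.8-fold (5.31 ± 0.83) in the authors' deposited table. The segmentation gene Kr rose 15.6-fold (3.96 ± 0.42), the LIM homeobox gene Lmx1a 14.8-fold (3.89 ± 0.49) and the wing selector gene vg 11.9-fold (3.58 ± 0.37) in the authors' deposited table. Among uncharacterised genes, CG4382 stood at a log2 fold change of 7.99 ± 0.79, CG8664 at 6.06 ± 2.09, CG15269 at 5.67 ± 0.97 and CG43349 at 4.97 ± 1.50 in the authors' deposited table. At the lower end of these 20 increases, CG9021 (3.73 ± 0.72) and the mucin-related gene Mur89F (3.69 ± 0.56) also rose in the authors' deposited table. The 20 also included the Hox genes Abd-B, Ubx, abd-A and Antp. The gene y (X, 356509 to 361245) rose 145.3-fold (7.18 ± 0.33, adjusted p = 2.76e-101) in the authors' deposited table.

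The largest decreases were led by CG34461, Tektin-C and cuticle protein genes. CG34461 (3L, 8325859 to 8328307) fell to 0.00712-fold of control, a log2 fold change of -7.13 ± 1.18 in the authors' deposited table. Tektin-C, which codes for a microtubule protein of cilia and sperm tails (3L, 5794405 to 5796543), fell to 0.0119-fold (-6.40 ± 0.33, adjusted p = 5.99e-83) in the authors' deposited table. The cuticle protein genes Cpr92F (-5.60 ± 1.25), Cpr62Bc (-5.48 ± 1.18), Cpr49Ae (-5.43 ± 0.94) and Cpr62Bb (-5.33 ± 1.52) followed in the authors' deposited table. In the authors' deposited table Dscam4, a cell surface protein of the immunoglobulin superfamily, fell to 0.0772-fold with a smaller error (SE 0.27, adjusted p = 2.72e-40). The kynurenine pathway gene v (-2.93 ± 0.83) and the antifungal peptide gene Drs (-3.38 ± 0.87) also fell in the authors' deposited table. The other 11 of the 20 largest decreases lay between -3.30 (CG8665) and -2.83 (Cpr67Fa2) in the authors' deposited table. Among them were CG2150, CG15919, CG14515, CG4962, Cyt-b5-r, the lipid carrier gene Apoltp, the troponin gene TpnC25D and the storage protein genes Lsp1alpha and Lsp1gamma.

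The share of called genes depended on expression level at the low end of the range and little above it. Tested genes were ordered by mean normalized count and divided into 10 bins of equal size. In bin 1, with mean counts of 1.65 to 7.20, 1.50% were called higher and 0.531% lower, and the smallest called change was 2.97 on the log2 scale. In bin 3 the shares were 2.66% and 6.64%. From bin 4 (mean counts from 105.2) upwards they stayed between 3.89% and 4.69% higher and between 6.46% and 8.41% lower. The median SE shrank over the same range from 1.40 in bin 1 to 0.0961 in bin 10, and the median absolute log2 change of called genes from 5.63 to 0.432. Median mean normalized counts were 795.8 for genes called higher and 788.2 for genes called lower.

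The most abundant called genes changed by small amounts. By mean normalized count in the authors' deposited table, the leading increases were Rm62, an RNA helicase gene (1.30-fold, log2 0.37 ± 0.10), and the basement membrane gene LanA (1.39-fold, 0.47 ± 0.13). The filamin gene cher rose 1.59-fold (0.67 ± 0.13) in the authors' deposited table. The leading decreases were the muscle actin gene Act57B (0.400-fold, -1.32 ± 0.40), the peptidase gene Ance (0.709-fold, -0.50 ± 0.16) and the muscle myosin gene Mhc (0.239-fold, -2.06 ± 0.49) in the authors' deposited table. Over the 10 most abundant genes called in each direction, the increases ran from 0.19 (eIF2A) to 0.67 (cher) in the authors' deposited table, with bnb, RpS12, jbug, GILT1, GstD1 and Ppn between. The decreases ran from -2.06 (Mhc) to -0.23 (GCS2alpha) in the authors' deposited table, with betaTub60D, Gapdh2, trol, Syp, Mpcp2 and ed also among them.

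**Figure D2:**
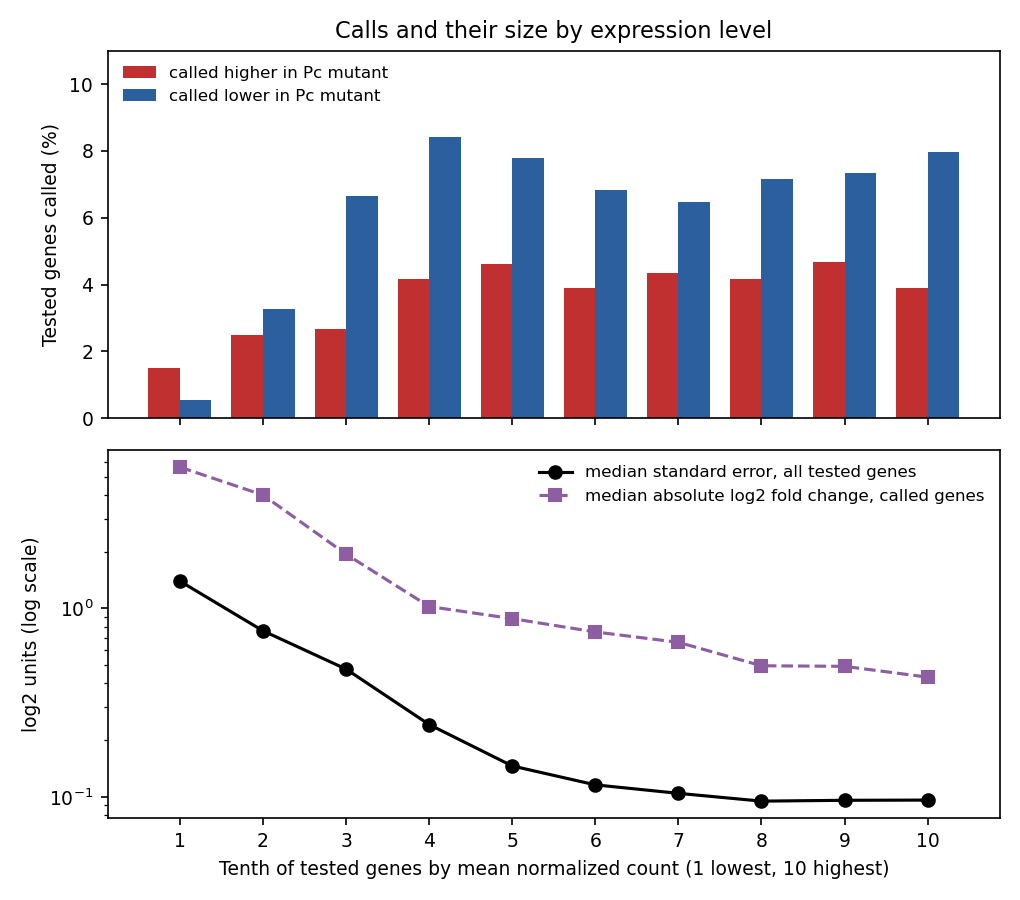
Percent of tested genes called higher and lower in each of 10 bins of the mean normalized count (top), and the median SE and the median absolute log2 fold change of called genes per bin on a log axis (bottom). The share called levels off from bin 4, while the median absolute change of called genes shrinks from 5.63 to 0.432.

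Transcription factor genes were called more often than genes as a whole, in both directions. Of 254 tested members of the 9 factor families outside the Hox list, 31 rose (12.2%) and 30 fell (11.8%), beside 3.64% and 6.24% of all tested genes. Their median mean normalized count was 657.7, and no test was made of the difference. The factor genes were also longer, with a median length of 8470.5 bp against 2574 bp for all tested genes placed on the annotation. In the longest of 3 equal bins of gene length, 4.39% of 2985 genes without a SUZ12 peak rose and 10.75% fell. The share of factor genes that fell was near that of these long genes, and the part of gene length was not tested. Homeobox genes outside the Hox and retina lists were the family with the most increases, 14 of 77, with 7 decreases and a median log2 fold change of -0.01. After cad and Lmx1a these were ap, which specifies the dorsal wing (2.61 ± 0.26), exex (2.34 ± 0.65), the POU domain genes nub (2.31 ± 0.33) and pdm2 (2.04 ± 0.60), HGTX (2.02 ± 0.47) and Dr (1.96 ± 0.36) in the authors' deposited table. Smaller increases of log2 0.95 or less were called at pdm3, zfh2, E5, inv, en and ara in the authors' deposited table. The decreases in the authors' deposited table were Hmx (-1.29 ± 0.34), Lim3 (-1.25 ± 0.38), B-H2, Dll, unc-4, ct and oc, the last of which patterns the ocelli.

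The other factor families had calls in either direction. Of 52 genes in the list of zinc finger developmental factors, 9 rose and 10 fell. The list was made by name, and bab2 in it does not code for a zinc finger protein. After Kr the increases were dar1 (1.33 ± 0.30), tsh, a trunk identity gene (1.09 ± 0.17), chinmo (1.05 ± 0.19), btd, Sp1, ab, bab2 and esg in the authors' deposited table. The decreases included gl, sens, peb, scrt, nerfin-1 and rn, of which gl and sens act in photoreceptor differentiation. In the authors' deposited table the basic helix-loop-helix family had 1 increase, the tracheal selector trh (1.58 ± 0.36), and 7 decreases among 44 members. These were ato, the proneural gene of photoreceptors (-1.34 ± 0.29), ss (-1.02 ± 0.23), net, dpn, hry, SREBP and cyc in the authors' deposited table. Nuclear receptors had 3 increases among 21, Hr38 (1.59 ± 0.45), knrl (1.13 ± 0.18) and kni (0.88 ± 0.12), and 1 decrease, svp (-0.86 ± 0.22), in the authors' deposited table. Of 8 Sox genes Sox15 and D were higher, of 5 GATA genes grn was higher (1.57 ± 0.30), and of 16 forkhead genes slp2 and fd96Cb were lower in the authors' deposited table. Of 23 bZIP and ETS genes Ets21C rose (2.02 ± 0.50) and pnt, aop and Pdp1 fell in the authors' deposited table. None of 8 T-box genes was called by the authors' DESeq2 test, and 3 had an unadjusted p under 0.05.

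The class of secreted signals was called at 24 of 81 tested members, 11 higher (13.6%) and 13 lower (16.05%), beside 3.64% and 6.24% of all tested genes. It also took in axon guidance receptors and membrane-bound ligands and antagonists, so not every member is secreted. The median length of these genes was 10220 bp, and the part of gene length was not tested. In the longest bin, 4.39% of genes without a SUZ12 peak rose and 10.75% fell. The cytokine and insulin-like list was split, with 5 of 23 members higher and 6 lower. All 3 ligands of the JAK/STAT pathway rose, upd3 11.1-fold (3.47 ± 0.43), upd2 7.67-fold (2.94 ± 0.51) and upd1 5.20-fold (2.38 ± 0.25) in the authors' deposited table. The Notch ligand Ser also rose (0.60 ± 0.16), while the other Notch ligand Delta fell (-0.43 ± 0.09) in the authors' deposited table. The tumour necrosis factor gene egr (-0.89 ± 0.20), the neurotrophin-like genes spz4, spz5 and NT1, and hh (-0.50 ± 0.12), the signal that moves differentiation across the eye disc, also fell in the authors' deposited table. Of 7 Wnt genes Wnt4 was higher (0.73 ± 0.21) and Wnt2 lower (-0.70 ± 0.24), and of 11 EGF, FGF and PDGF ligands vn (0.63 ± 0.16) and pyr (0.47 ± 0.13) were higher in the authors' deposited table. None of 6 BMP and activin ligands was called by the authors' DESeq2 test, and 1 had an unadjusted p under 0.05. Among 19 antagonists of secreted signals, sog and magu were higher and ImpL2, fz3, aos and kek1 lower.

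Pathway lists with members inside the cell gave mixed counts, beside 3.64% higher and 6.24% lower among all tested genes. Of 14 JAK/STAT genes 5 rose and none fell, the other increases being chinmo and Ptp61F (0.18 ± 0.05) in the authors' deposited table. Of 19 genes of the EGF receptor pathway 7 fell and 1 rose, the decreases being ru (-1.32 ± 0.36), pnt, aop, rho, aos, kek1 and Dsor1 in the authors' deposited table. Of 18 Notch core genes 3 fell, neur, Delta and Psn, and Ser rose. Of 16 Hippo pathway genes vg and kibra (0.53 ± 0.14) rose in the authors' deposited table. The JNK and wound response list had 7 increases and no decrease among 20 members, with a median log2 fold change of 0.29. Beside Ilp8, upd3 and chinmo these were Ets21C, the metalloprotease gene Mmp1 (3.20-fold, 1.68 ± 0.16), and the cell death genes rpr (0.83 ± 0.14) and hid (0.66 ± 0.18) in the authors' deposited table. Of 20 ecdysone response genes MsrA was higher and ImpL2 lower, so 10.0% were called, near the 9.88% of all tested genes.

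Of 392 extracellular proteins outside the signals, 51 fell (13.01%) and 26 rose (6.63%), beside 6.24% lower and 3.64% higher among all tested genes, which also had more decreases than increases. The Cpr family of chitin-binding cuticle proteins contributed 17 decreases and 4 increases among 80 tested members, at a median log2 fold change of -0.78. With a mean normalized count of at least 50 there were 40 Cpr genes, 8 lower and 3 higher. The called increases, Cpr64Aa (1.72 ± 0.57), Cpr65Ec (1.59 ± 0.45), Pcp (1.51 ± 0.37) and Cpr78E (1.37 ± 0.31), were smaller than most decreases in the authors' deposited table. Of 20 Osiris genes, which code for membrane proteins of cuticle-making epithelia, 3 fell (Osi17 at -1.61 ± 0.42, Osi24 at -0.95 ± 0.15 and Osi9 at -0.93 ± 0.24) and Osi14 rose (1.90 ± 0.56) in the authors' deposited table. Chitin-binding proteins of the trachea and cuticle, obst-A (-1.23 ± 0.29), Peritrophin-A (-1.20 ± 0.24) and Gasp (-0.72 ± 0.11), fell, while the chitinase genes Cht5 (1.58 ± 0.31) and Cht7 (0.41 ± 0.11) rose in the authors' deposited table.

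Other extracellular families differed in the direction of their calls. The yellow family had 3 increases and no decrease among 11 members, y, yellow-c (1.71 ± 0.33) and yellow-b (1.05 ± 0.20) in the authors' deposited table. Serpins, inhibitors of serine proteases, had 4 increases among 20, led by Spn47C (1.42 ± 0.16), and 1 decrease, Spn88Eb (-3.31 ± 0.85), in the authors' deposited table. Among 45 serine proteases SPE (1.67 ± 0.33) and grass (0.71 ± 0.18), both of the Toll activating cascade, were higher in the authors' deposited table. That list had a median log2 fold change of 1.15, but a median SE of 1.36 and a median mean normalized count of 32.05. Antimicrobial peptide genes had 6 decreases among 24 (BomS3, BomS2, AttA, IM33, Drs and AttB) and no increase, at a median mean normalized count of 6.32. Mmp2 fell (-0.78 ± 0.14) while Mmp1 rose, and the perlecan gene trol (-0.34 ± 0.09) fell while LanA and Ppn (0.47 ± 0.13) rose in the authors' deposited table. Of 26 odorant binding protein genes, Obp99a (-1.46 ± 0.19), Obp99b (-1.50 ± 0.47) and Obp99c (-1.60 ± 0.40), fell, and Obp83a and Obp19d, at mean normalized counts of 6.66 and 7.04, were higher, in the authors' deposited table.

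Surface proteins were called at 54 of 302 tested members, 17 higher (5.63%) and 37 lower (12.2%), beside 3.64% and 6.24% of all tested genes. Their genes were longer, with a median length of 7520.5 bp against 2574 bp for all located tested genes. Both shares were near those of the longest bin of genes without a SUZ12 peak, 4.39% higher and 10.75% lower. The part of gene length was not tested. The Methuselah family of G protein-coupled receptors had 5 increases and 2 decreases among 13. When fold changes were centred on the median of all tested genes 3 increases were left, and 2 on the ribosomal protein median. The increases lay at mth, mthl9 and mthl10, close together on 3L, and at mthl3 and mthl4, close together on 2R. Those on 3L lie within the annotated span of Ptpmeg, which was also higher. The receptor gene mth (3L, 343378 to 346957) rose 5.25-fold, with the smallest adjusted p of any gene named here (2.39 ± 0.10, adjusted p = 3.5e-122), in the authors' deposited table. The dpr and DIP genes, immunoglobulin proteins that pair on synaptic partners, had 4 increases and 4 decreases among 32. The increases were large, dpr17 at 4.62 ± 0.51, dpr2 at 3.72 ± 0.87, DIP-eta at 2.40 ± 0.62 and dpr6 at 2.17 ± 0.44, and the decreases were DIP-delta (-1.59 ± 0.43), dpr8, dpr9 and dpr1 in the authors' deposited table. With a mean normalized count of at least 50 there were 2 increases, dpr17 and dpr6, and 4 decreases. Of 21 beat and side genes 4 fell and 1 rose, of 23 leucine-rich repeat proteins 6 fell and 2 rose, and of 16 cadherins 3 fell (Cad88C, CadN and stan). Of 22 junction genes ed, Gli and Fas2 fell, with log2 fold changes between -0.28 and -0.15.

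**Figure D3:**
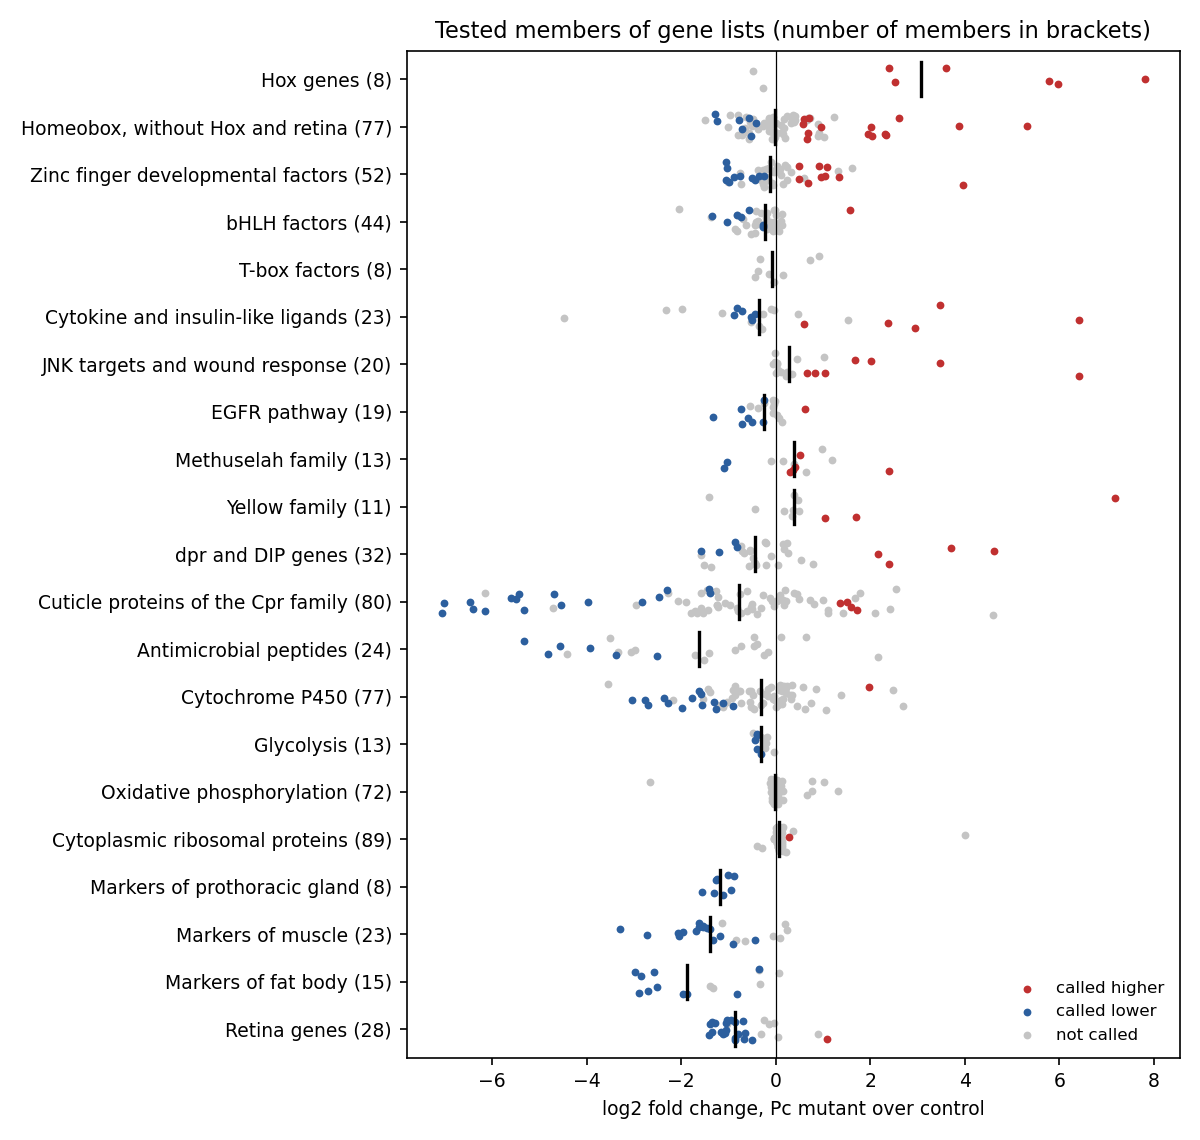
Log2 fold change, Pc mutant over control, of every tested member of 21 gene lists, with members called higher in red, called lower in blue and not called in grey, and the list median as a black line. Ribosomal protein genes cluster at 0.07, whereas cuticle, fat body and muscle lists lie mostly below 0 and homeobox genes spread to both sides.

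Respiratory chain, proteasome and ribosomal protein genes were rarely called, whereas glycolytic and cytochrome P450 genes were called more often than the 9.88% of all tested genes. None of 72 oxidative phosphorylation genes and none of 36 proteasome genes was called by the authors' DESeq2 test, and 2 and 0 of them had an unadjusted p under 0.05. Of 89 cytoplasmic ribosomal protein genes RpS12 was called (0.27 ± 0.09) in the authors' deposited table, and it was no longer called when the list's own median of 0.07 was subtracted. Of 74 mitochondrial ribosomal protein genes mRpL37 was called (0.53 ± 0.08) in the authors' deposited table. Of 13 glycolytic genes 5 fell, Pglym78, Gapdh2 (0.757-fold), Pfk (0.764-fold), Ald1 and Pgi, with log2 fold changes between -0.43 and -0.31 in the authors' deposited table. In the authors' deposited table, of 77 cytochrome P450 genes 14 fell and 1 rose, Cyp18a1 (1.96 ± 0.57), which codes for an enzyme that inactivates ecdysteroids. Of these decreases, 4 were ecdysteroid synthesis genes (spok, sad, phtm and dib). Among 38 replication and cell cycle genes Mcm5 and E2f2 rose and stg and dap fell. Of 12 PRC1 subunit genes Su(z)2, the paralogue of Psc, rose 3.83-fold (1.94 ± 0.23), and Pc and ph-d (-0.38 ± 0.10) fell in the authors' deposited table. The other 9, ph-p, caly, Asx, Sce, Scm, l(3)73Ah, Kdm2, RYBP and Psc, were not called, with log2 fold changes between -0.22 and 0.20 in the authors' deposited table. None of 12 PRC2 and PhoRC genes and none of 21 trithorax group genes was called by the authors' DESeq2 test, and 2 of each list had an unadjusted p under 0.05.

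Markers of muscle, fat body and the prothoracic gland were lower as well. Among all tested genes 3.64% were called higher and 6.24% lower. Of 23 muscle genes 16 fell and none rose, with a median log2 fold change of -1.38, and Mlc2 in the authors' deposited table stood at -1.68 ± 0.31. Of 15 fat body genes 10 fell and none rose, at a median of -1.88, and 6 of 11 larval serum and storage protein genes, which overlap that list, fell. All 8 genes of a list for the prothoracic gland, which makes ecdysteroids, fell, between -1.56 and -0.89 with a median of -1.18. They included spok (0.340-fold, -1.56 ± 0.17), sad (0.405-fold, -1.30 ± 0.21), phtm (0.417-fold, -1.26 ± 0.24) and nvd (0.423-fold, -1.24 ± 0.19) in the authors' deposited table. That list was added after values of 3 of its genes had been seen. None of its 8 genes had a merged PSC peak. Genes of the salivary gland and gut list were at a median of 2.66 with no DESeq2 call among 18 (6 at an unadjusted p under 0.05), at a median SE of 1.51. Of 16 neuronal genes 5 fell, of 14 glial genes 3 fell, of 17 antennal genes 9 fell and 2 rose, and of 12 tracheal genes 4 rose and 2 fell. The neuronal list shares elav with the retina list, in which 20 of 28 genes fell and 1 rose, at a median of -0.86. The neuronal, glial and antennal lists are not read as tissue foreign to the disc, and in which cells any of these lists fell was not tested. The levels of these lists in each group cannot be given, since the table has no values per group, and their part in the decreases of the storage protein, cuticle, P450 and antimicrobial lists was not tested.

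Binding by PSC and SUZ12 was set against the calls for the 11281 tested genes that could be placed on the dm6 annotation, of which 9.86% were called, 3.63% higher and 6.22% lower. A gene counted as bound when 1 of the 5999 merged PSC peaks or 2205 merged SUZ12 peaks overlapped its body or the 1000 bp around it. Of 1254 genes with both, 78 rose (6.22%) and 94 fell (7.50%). Of 2717 genes with PSC alone, 108 rose (3.98%) and 206 fell (7.58%). Of 81 genes with SUZ12 alone 2 rose and 6 fell. Of 7229 genes with neither, 222 rose (3.07%) and 396 fell (5.48%). Genes with neither peak therefore made up 54.15% of the increases and 56.41% of the decreases. Both lay below their share of all located tested genes (7229 of 11281). The bound classes were expressed more highly, with median mean normalized counts of 1731 for both and 1474 for PSC alone, against 254.6 for neither. With genes divided into 3 equal bins by mean count, the share called higher in the middle bin was 10.96% with both and 3.72% with neither (40 of 365 and 93 of 2501). It was 2.69% and 2.41% in the lowest bin, and 4.69% and 3.37% in the highest bin. With 3 equal bins of gene length, the shares in the longest bin were 8.42% with both and 4.16% with neither, and in the shortest bin 0.980% and 1.96%, so the order did not hold for short genes.

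Genes called in either direction lay nearer to PSC peaks than all located tested genes, and the increases lay nearest. The median distance from gene to nearest merged PSC peak was 1891.5 bp for genes called higher, 3050.5 bp for genes called lower and 4302 bp for all located tested genes. A peak lay within 1000 bp of 45.37% of the increases, 42.74% of the decreases and 35.2% of all located tested genes. Bound genes were more highly expressed and longer, with median lengths of 6222.5 bp (both), 3904 bp (PSC alone) and 2137 bp (neither). Distances were not compared at like length or mean count, so the part of either was not tested.

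The number of peaks at a gene separated the increases more than their presence did. With 0, 1, 2 to 4 and 5 or more SUZ12 peaks, the share called higher was 3.32%, 4.05%, 9.48% and 42.1%, and the share called lower 6.05%, 7.18%, 9.95% and 2.63%. The classes held 9946, 1086, 211 and 38 genes. For PSC the shares called higher were 3.06%, 3.61%, 5.78% and 16.0% and those called lower 5.50%, 6.34%, 9.30% and 16.7%, over 7310, 2713, 1108 and 150 genes. The near-even split at 5 or more PSC peaks depended on the peak list. With the peaks of replicate 2 alone (without replicate 1) it was 24.6% higher and 16.4% lower of 61 genes. With the peaks of replicate 1 alone it was 13.4% higher and 15.3% lower of 157 genes. With peaks found in both replicates it was 24.4% higher and 17.8% lower of 45 genes. All 38 genes with 5 or more SUZ12 peaks were in the longest bin, where the share called higher among genes without a SUZ12 peak was 4.39%. The height of the peaks gave no such order. In 4 bins of the authors' peak fold, from low to high, 7.78%, 6.27%, 4.82% and 5.09% of genes with a SUZ12 peak were called higher.

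**Figure D4:**
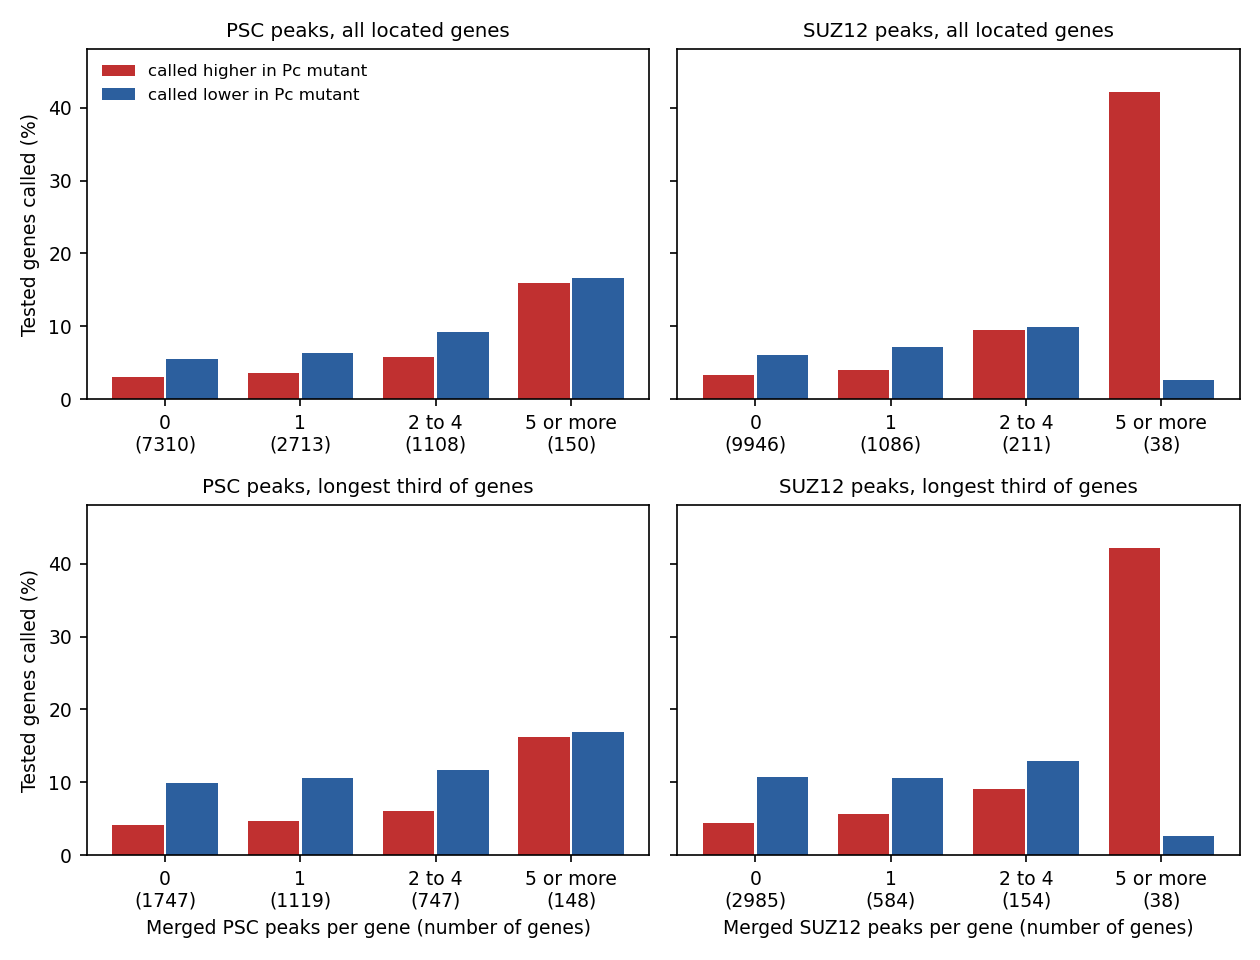
Percent of tested genes called higher and called lower by number of merged PSC peaks and merged SUZ12 peaks in the gene body and the 1000 bp around it, for all located genes (top) and for the longest of 3 bins of gene length (bottom), with gene numbers in brackets. The share called higher reaches 42.1% at 5 or more SUZ12 peaks, whereas both shares rise with merged PSC peaks, to 16.0% and 16.7%.

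The 38 genes with 5 or more SUZ12 peaks held 16 increases and 1 decrease, at a median log2 fold change of 0.27. Of the increases 6 were Hox genes, and without the 7 Hox genes of this class 10 of 31 (32.3%) rose. These 10, named after their values were seen, were Sox15, cad, tey, rib (3.28 ± 0.52), nub, HGTX, Su(z)2, chinmo, zfh2 (0.70 ± 0.25) and inv (0.65 ± 0.19) in the authors' deposited table. The factor rib is known for tracheal and salivary gland morphogenesis, and tey for repressing Toll in muscle. The decrease in the authors' deposited table was salm (-0.49 ± 0.09), a zinc finger gene of photoreceptor and antennal identity. Among transcription factors as a class, 25 of 115 with both proteins rose (21.7%) and 15 fell (13.04%), while 2 of 60 with neither rose and 4 fell. The classes of secreted signals and other extracellular proteins together had 9 of 41 members with both proteins higher and 7 lower. With neither, 16 of 338 were higher and 40 lower.

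Of the 10 genes with most merged PSC peaks, 2 rose, 2 fell and the others were not called. The genes with most merged PSC peaks were bi and hth, 32 each, and neither was called, at -0.13 ± 0.17 and -0.14 ± 0.11 in the authors' deposited table. CG9380, with 30 PSC and 40 SUZ12 peaks, stood at 0.13 ± 0.18 (adjusted p = 0.84) in the authors' deposited table, and its annotated span includes that of Kr, which rose, so the reads and peaks of these genes may not be separable. The genes cnc and Lim1, with 19 PSC peaks each, were at 0.05 ± 0.14 and 0.36 ± 0.18 in the authors' deposited table. The gene ush, also with 19, just missed the threshold at 0.30 ± 0.11 (adjusted p = 0.0513) in the authors' deposited table. The increases were the Hox gene Antp, with 26 PSC and 42 SUZ12 peaks (3.60 ± 0.47), and inv, with 17 PSC and 6 SUZ12 peaks (0.65 ± 0.19), in the authors' deposited table. With 18 and 17 PSC peaks, pnt (-0.73 ± 0.13) and ey (-0.86 ± 0.18) fell in the authors' deposited table. Conversely, Ilp8, CG4382, CG8664 and dpr17 rose without a merged PSC or SUZ12 peak within 1000 bp, and the nearest PSC peak lay 17060 bp from Ilp8.

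Calls were denser on 3L than on the other arms. There 306 of 2297 tested genes were called (13.32%), 119 higher and 187 lower, against 8.97% on all other arms together and between 8.36% and 9.35% on each of 2L, 2R, 3R, 4 and X. Pc and the FRT2A site lie on 3L, and the control chromosome is not named, so linked background and the mutation cannot be told apart. The surplus was not greater near Pc. Within 1 Mb of it, 11 of 222 genes were higher (4.96%) and 12 lower (5.41%), against 108 (5.21%) and 175 (8.43%) of 2075 genes farther away on 3L. The genes farther away pooled both sides of Pc, which differed. Beyond 1 Mb towards lower coordinates, between 6.42% and 23.7% of genes were called in each 1 Mb step. Towards higher coordinates 3.77% of 53 genes were called between 1 and 2 Mb, and later steps held 9 genes or fewer each. Without 3L the table had 292 increases and 518 decreases. Neighbouring called genes formed runs of the same direction on 3L, and also on 2L, 3R and X. Those on 3L included Ptpmeg, mthl9, mthl10 and mth (328097 to 346957), which rose, and Tom, Brd and Ocho (14969344 to 14976040), Bearded family genes of the Notch pathway, which fell. Lcp65Ad, Lcp65Ac, Acp65Aa and CG13297 (6143395 to 6157377) fell as a further run. So did ebd2, CG12971 and CG32437 (21344768 to 21359867), which lie close to Pc (21306138 to 21318020). The annotated span of Ptpmeg includes those of mthl9, mthl10 and mth, so the reads of these genes may not be separable.

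On 3R a segment of neighbouring genes rose together. Running medians over 15 neighbouring genes with a mean normalized count of at least 50 were highest there, at a log2 fold change of 0.50. The next highest of the 8468 windows that shared no gene with the segment was 0.19, and the 99th percentile of all windows was 0.14. Between MED7 and Leash (3R, 10760071 to 10896418, 136348 bp), 19 of 34 tested genes were higher and none lower, at a median of 0.47 (1.39-fold). Of the 20 genes there whose mean count reached 500, 17 were higher, at a median of 0.51 (1.42-fold). They included Cap-H2 (0.72 ± 0.14), Mcm5 (0.66 ± 0.11), Fdh (0.65 ± 0.07), Art1 (0.64 ± 0.14), Leash (0.62 ± 0.08) and Tsp86D (0.54 ± 0.10) in the authors' deposited table. Of the 34 genes, 6 had a merged PSC peak. In the 500 kb on either side, 1 of 46 genes whose mean count reached 50 was higher and 3 lower, at a median of 0.02. The same 34 genes were at a median of 0.01 in ph RNAi discs over white RNAi discs. The segment was found by scanning these fold changes, so its height is a description with no test. No DNA of these strains was analysed here, so a difference in copy number of the segment and a difference in RNA per copy cannot be told apart. It held Tsp86D, Mcm5 and mRpL37, calls counted above in the tetraspanin, replication and mitochondrial ribosomal lists, and without it the table had 392 increases and 705 decreases.

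**Figure D5:**
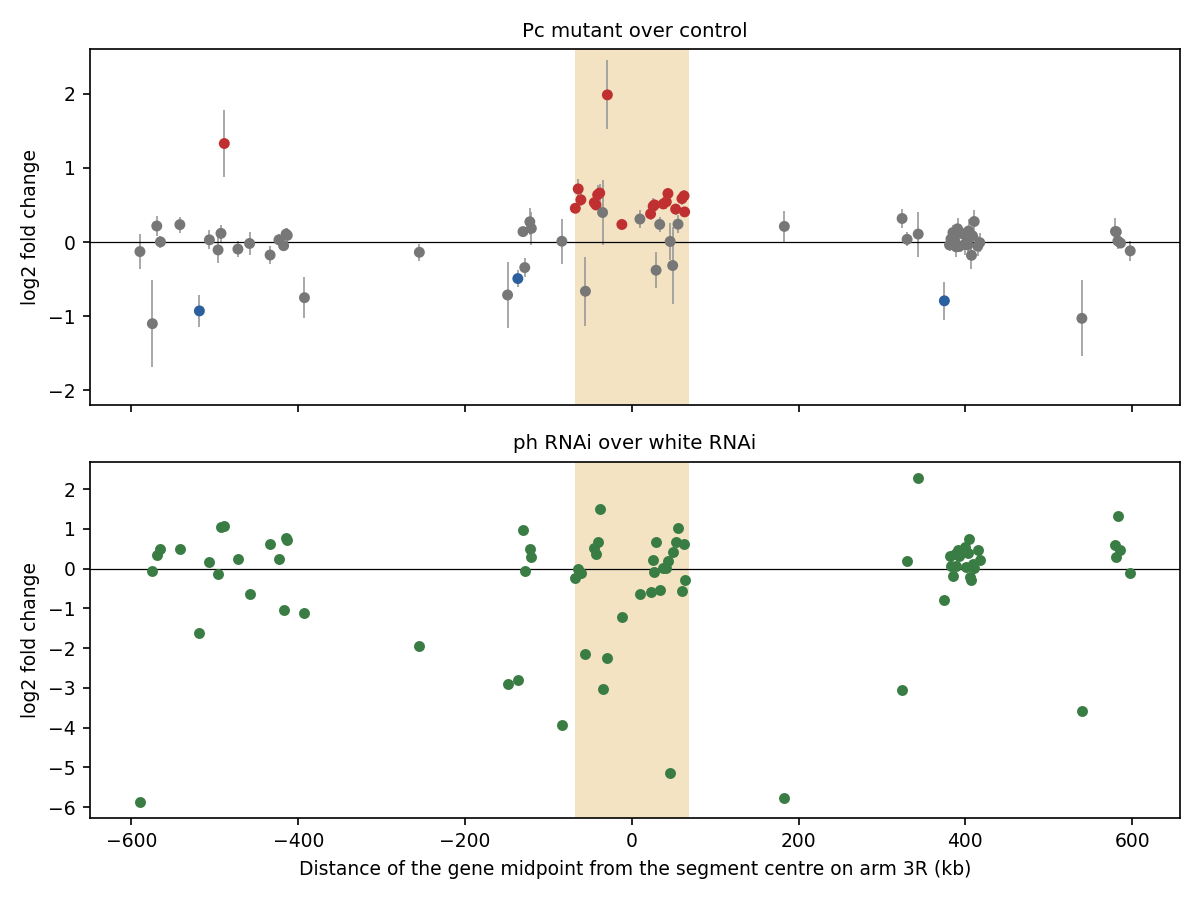
Log2 fold change of genes with a mean normalized count of at least 50 by distance from the centre of the 3R segment (shaded), for Pc mutant over control (top, ± SE, called higher in red, called lower in blue, not called in grey) and ph RNAi over white RNAi (bottom, green, drawn without SE). The shaded genes of the Pc mutant sit around 0.50 and drop to about 0 at both edges, while the ph RNAi values show no such step.

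The lowest windows lay at the Osiris cluster of 3R (Osi24 to Osi19, 6198811 to 6337196), at a median log2 fold change of -0.93, and at NimB1 to CG46301 on 2L (13963507 to 14160587), at -0.72.

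Some of the largest changes in Pc mutant discs had counterparts in ph RNAi discs and others did not. The difference of the fold changes was tested by a z test with standard errors added in quadrature, adjusted over 10588 genes, of which 49.8% differed at an adjusted p under 0.05. It assumes that the comparisons share no library, which the labels do not state. In the authors' deposited tables, Sox15 was at a log2 fold change of 6.60 ± 0.50 in Pc mutant discs and 6.39 ± 0.40 in ph RNAi discs (difference 0.21 ± 0.64, adjusted p = 0.812). Ilp8 was at 6.41 ± 0.55 in Pc mutant discs and 6.76 ± 1.00 in ph RNAi discs in the authors' deposited tables (difference -0.35 ± 1.14, adjusted p = 0.829). Kr was at 3.96 ± 0.42 in Pc mutant discs and 4.03 ± 0.82 in ph RNAi discs in the authors' deposited tables (difference -0.06 ± 0.92, adjusted p = 0.964). These 3 differences were not detectable, at errors that leave room for differences of more than 1 on the log2 scale. The increase was smaller in Pc mutant discs at cad, 5.31 ± 0.83 against 9.77 ± 0.41 in ph RNAi discs in the authors' deposited tables (adjusted p of the difference 5.94e-06). The same held for chinmo, at 1.05 ± 0.19 in Pc mutant discs and 2.99 ± 0.09 in ph RNAi discs in the authors' deposited tables (3.5e-19).

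Other changes ran in opposite directions. The gene y was at 7.18 ± 0.33 in Pc mutant discs and -4.21 ± 0.16 in ph RNAi discs in the authors' deposited tables (adjusted p of the difference 2.55e-206). The receptor gene mth was at 2.39 ± 0.10 in Pc mutant discs and -0.96 ± 0.03 in ph RNAi discs in the authors' deposited tables (1.7e-219). The wing gene ap was at 2.61 ± 0.26 in Pc mutant discs and -2.09 ± 0.18 in ph RNAi discs in the authors' deposited tables (9.99e-47). Tektin-C was at -6.40 ± 0.33 in Pc mutant discs and 1.45 ± 0.62 in ph RNAi discs in the authors' deposited tables (1.06e-27). For CG4098 the difference was one of size, with 3.71 ± 0.18 in Pc mutant discs and 0.19 ± 0.09 in ph RNAi discs in the authors' deposited tables (6.07e-65). Of the prothoracic gland genes, spok was at -1.56 ± 0.17 in Pc mutant discs and -2.68 ± 0.54 in ph RNAi discs in the authors' deposited tables (0.087). The muscle gene Mlc2 was at -1.68 ± 0.31 in Pc mutant discs and 0.20 ± 0.21 in ph RNAi discs in the authors' deposited tables (2.64e-06). Differences of strain between the comparisons and effects of the genes cannot be told apart in these values.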

How the data were processed

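The series holds 46 samples in 19 groups. The Pc mutant comparison (2 mutant replicates) came as a table whose columns are those DESeq2 writes, per the file headers. The authors deposited in it a mean normalized count per gene, which is a mean signal over all libraries of the comparison, so the depth per sample is unknown and counting intervals were not computed. The log2 fold change, its standard error and the Wald score (fold change over standard error) are the authors', per the file headers, as are the p-value and adjusted p-value. The deposited adjusted p equalled Benjamini-Hochberg over the genes that have one, to within 9.81e-09. The submitters' processing notes name dm6 as the build and, as tools, STAR, HTSeq, DESeq2 1.22.1, Bowtie2, SAMtools and MACS2 2.1.1.20160309, with no settings. Libraries were made with a stranded poly-A kit per the labels' protocols, and no source used here gives the strand setting of the counting, so overlapping and antisense genes are uncertain, as are near-identical family members. In the deposited peak lists the score, the fold over background and the -log10 p and q values per peak are the authors', and merged lists hold all replicates per the series' design text. The ratio called fold per peak was used only to rank or filter peaks within a list.

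No model was fitted again, since the table has no values per sample. Peaks were kept on 6 chromosome arms, and a gene was bound when a merged peak shared at least 1 bp with its body or the 1000 bp around it in the Release 6 annotation. That annotation carried no strand, so binding at start sites was not analysed. Protein and promoter sequences were not used here, so secreted proteins and transcription factors were taken from 82 gene lists by name, covering 2038 genes of the table, and the planned classes by protein feature were not made. Members and lists were chosen with earlier results of these data known. Some lists share genes, and the prothoracic gland list was added after values of 3 of its genes had been seen. Genes were named from PRC1 subunits, the 20 largest increases and decreases with a mean normalized count of at least 50, up to 4 called members per list by adjusted p, the 10 genes with most PSC peaks and the 10 called genes with the highest mean count in each direction. Not every member that this rule takes from the lists is named. Further members of lists, genes with 5 or more SUZ12 peaks and genes of the 3R segment were named after their values were seen. Alternatives changed the adjusted p, a fold limit, centring, count filters, the binding window and the peak lists. Calculations used Python 3.11.15, pandas 2.3.3, NumPy 2.4.6, SciPy 1.17.1, statsmodels 0.14.6 and matplotlib 3.10.9, and were tested on simulated data.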

Additional observations from a re-analysis of the deposited data

How the results depend on the processing

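No paired analysis was possible because the deposited table has no values per sample, and no library of the Pc comparison could be left out for the same reason. With an adjusted p under 0.01 there were 255 increases and 452 decreases, and with a log2 fold change of at least 1 there were 170 and 274, which by construction left 1.95% called in the bin of highest mean counts. Neither centring turned a call of a named gene to the other direction. Centring on the median of all tested genes ended 6 of the 286 calls among the 366 genes taken by the naming rule or by the text, and centring on the ribosomal protein median ended 13 and added 3. At an adjusted p under 0.01 the zinc finger list had 7 increases and 6 decreases, and the cytokine list 5 and 4. Peaks found in both replicates gave 7.90% higher and 9.38% lower for genes with both proteins. They gave 60.0% higher (6 of 10 genes) and 0.00% lower for 5 or more SUZ12 peaks, and 24.4% higher (11 of 45) for 5 or more PSC peaks. Peaks of a single replicate gave 6.34% to 7.87% higher with both proteins and 6.21% to 8.99% lower with PSC alone. They gave 13.4% to 24.6% higher at 5 or more PSC peaks. At 5 or more SUZ12 peaks they gave 47.1% to 47.8% higher (8 of 17 and 11 of 23 genes) and 0.00% to 5.88% lower. The Hox genes were kept in these settings, so the shares at 5 or more SUZ12 peaks rest on few genes. The share lower with PSC alone was 6.53% in a 5000 bp window and 4.33% with peaks of at least 3-fold, which left 3.56% higher and 6.27% lower with neither. With a mean count of at least 50, 6.90% of genes with neither were lower and 15.7% of 3L genes were called. The cause of these shifts was not tested. Binding at start sites and classes by protein feature were not run. Fold changes of genes with low mean counts carry SEs above 1, so changes there were not detectable unless large.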

Other observations

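Outside the lists described above, a few families had values that belong in no comparison of the report. Of all tested genes 9.88% were called, beside 8.0% of the heat shock list and 3.70% of the ionotropic and gustatory receptor list. Glutathione S-transferase genes were split in the authors' deposited table, with GstD1 (0.43 ± 0.09), GstD3, GstT3 and GstT4 higher and GstE14 (-1.32 ± 0.32), GstE7 and GstS1 lower among 35. Of 48 neurotransmitter receptor genes 5 fell, among them GluRIIC (-1.30 ± 0.28) and GluRIIE (-1.07 ± 0.33), subunits of the receptor at larval muscle, and Octbeta3R rose (1.92 ± 0.27) in the authors' deposited table. Of 15 germline genes vas (-1.68 ± 0.34), piwi and spn-E fell in the authors' deposited table. Of 25 heat shock genes Hsc70-2 (2.55 ± 0.71) and Hsp60C were higher in the authors' deposited table, at mean normalized counts of 40.0 and 5.65. Of 54 ionotropic, gustatory and odorant receptor genes Gr61a (0.99 ± 0.26) was higher and Ir40a (-1.65 ± 0.42) lower in the authors' deposited table.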
